A study of Mus musculus with 384 samples.

Results

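The genes of cholesterol and fatty acid synthesis under the SREBP transcription factors were examined in single mouse pluripotent stem cells. They are 35 of the 31617 genes counted, 5 regulators, 18 sterol enzymes, 2 genes of branching and transport and 10 fatty acid enzymes. The members were chosen by gene symbol, and the group was picked because Insig1 and Scd1 had been seen at high level in only 1 of the 4 lines, the EpiSC line AFX6. The levels of these 2 genes across lines are therefore a description with no test. The labels put 96 cells in each of 4 lines. The formative stem (FS) cell lines 5ar1 and 5ar2 were grown in AloXR, which holds 3 ng/ml activin A, 2 μM XAV939, a tankyrase inhibitor that lowers Wnt signalling, and 1.0 μM BMS493, an inverse agonist of retinoic acid receptors. The epiblast stem cell (EpiSC) line AFX6 was grown in AFX, with 20 ng/ml activin A, Fgf2 and 2 μM XAV939. The EpiSC line AF32 was grown in AF, with the same activin A and Fgf2 and no XAV939. All 4 lines thus received activin A, and 3 of the 4 received XAV939. Each line was derived from an embryo, and the labels give no strain for a line. Lines and not cells are the replicates of a state, and with 1 line for each EpiSC medium, line and medium cannot be told apart.

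SREBP2, the product of Srebf2, is known mainly as the activator of the cholesterol pathway, and SREBP1, the product of Srebf1, mainly as the activator of fatty acid synthesis. Both are made as membrane proteins of the endoplasmic reticulum. Scap carries them to the Golgi apparatus, where they are cut and set free to enter the nucleus. When sterols are plentiful, the Insig proteins hold Scap back. Insig1 is itself an SREBP target, which closes a feedback loop. Dividing cells need both pathways for new membrane.

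Smart-seq2 copies full-length mRNA of sorted single cells and carries no molecular identifiers. Cells with at least 3000000 counts were kept, which left 90 cells of 5ar1, 90 of 5ar2, 66 of AFX6 and 80 of AF32, with between 3022666 and 6686007 counts each. Levels are given as CPM, counts per 1000000 counts of a cell or, for a line, of the summed counts of its kept cells. The 4 sums held 332621205 to 434858507 counts, so that 3 counts in a line, the limit that a count of 0 allows, are at most 0.00902 CPM. Of 7 pluripotency genes measured, Pou5f1, the core factor, stood at 490 to 644 CPM in every line and Otx2 at 110 to 178. The others differed more. Sox2 was at 4.88 CPM in AFX6 to 17.5 in 5ar2, and Lin28a at 17.0 in AF32 to 89.2 in 5ar1. Nanog ranged from 28.5 CPM in 5ar1 to 400 in AF32. Dnmt3b ranged from 493 CPM in AFX6 to 2243 in 5ar1, and Utf1 from 302 in AF32 to 1057 in AFX6. Fgf5, a marker of the formative state, was at 30.7 CPM in AFX6 and 44.9 in AF32, while the FS lines had 229 and 272. Markers of other cell types differed between lines too. Of 5 primitive streak genes measured, T was at 39.1 CPM in AF32 and at most 0.382 elsewhere, while Eomes was at 61.3 and 48.2 CPM in the FS lines and at most 6.6 in the EpiSC lines. Of 3 neural genes, Tubb3 was at 335 CPM in 5ar1, 130 in 5ar2, 68.7 in AF32 and 12.2 in AFX6. Of 4 fibroblast genes, 5ar2 had Col1a1 at 27.7 CPM and Col1a2 at 10.9. Their part in the results was not tested. Apart from these values, no gene of the streak, neural, fibroblast, trophoblast and extraembryonic endoderm lists passed 8.38 CPM in any line.

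The promoters of 28 members were found by symbol in a RefSeq table of GRCm38.p6, each as 300 bases, from 250 before to 50 after a transcription start. Scd1, Scd2, Fads1, Fdps, Fdft1, Sqle and Stard4 had no entry. Both strands were searched for CCAAT, the box bound by NF-Y, for CACGTG, an E-box, and for TCACNCCAC, the classical sterol regulatory element. None of these motifs contains another, though their ends may overlap. At least 1 promoter with CCAAT was found for 23 of the 28 members (82.1%), against 41.1% of 27025 genes. These genes were not limited to those expressed in the cells. Counted by start, it was 24 of 37 starts of members (64.9%), against 37.4% of all starts. By gene, the share was 14 of 15 sterol enzymes (93.3%) and 4 of 7 fatty acid enzymes (57.1%). CACGTG was present for 5 of 28 members (17.9%) and 8.09% of all genes. Those 5 were Scap, Insig1, Hsd17b7, Sc5d and Dhcr7. TCACNCCAC was present for 1 member, Hmgcs1 (3.57%), and for 1.4% of all genes. A match in these letters is a description and not a bound site.

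The 250 bases before the start are printed 5′ to 3′ for 4 members, with all matches in capitals. Hmgcs1, Cyp51 and Mvd are shown as sterol enzymes that hold a motif and move with the others from cell to cell, and Insig1 because it does not move with them. Acat2, which is in the closest pairs of all, has none of the 3 motifs and is not printed. Positions are of GRCm38, counted from the RefSeq start, which can differ from the first base of the gene in the GENCODE M21 annotation used for the genes. They are Hmgcs1 at chr13:119690101-119690350 on the plus strand, Cyp51 at chr5:4104698-4104947 on the minus strand, Mvd at chr8:122443423-122443672 on the minus strand and Insig1 at chr5:28071162-28071411 on the plus strand.
Hmgcs1: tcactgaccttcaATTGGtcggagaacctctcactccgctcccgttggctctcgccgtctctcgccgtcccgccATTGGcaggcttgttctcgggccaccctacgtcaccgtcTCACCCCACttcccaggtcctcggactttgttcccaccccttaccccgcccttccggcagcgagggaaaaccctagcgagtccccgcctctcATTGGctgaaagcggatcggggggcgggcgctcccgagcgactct
Cyp51: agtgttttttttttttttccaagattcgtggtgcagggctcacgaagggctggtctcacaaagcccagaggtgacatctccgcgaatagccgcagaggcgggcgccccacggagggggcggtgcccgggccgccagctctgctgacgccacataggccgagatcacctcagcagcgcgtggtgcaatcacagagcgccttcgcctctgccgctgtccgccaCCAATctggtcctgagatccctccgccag
Mvd: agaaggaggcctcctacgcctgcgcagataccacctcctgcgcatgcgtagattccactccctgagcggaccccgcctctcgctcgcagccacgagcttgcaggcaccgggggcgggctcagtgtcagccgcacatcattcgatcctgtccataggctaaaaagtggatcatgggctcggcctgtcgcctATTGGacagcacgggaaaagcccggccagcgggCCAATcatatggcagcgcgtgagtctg
Insig1: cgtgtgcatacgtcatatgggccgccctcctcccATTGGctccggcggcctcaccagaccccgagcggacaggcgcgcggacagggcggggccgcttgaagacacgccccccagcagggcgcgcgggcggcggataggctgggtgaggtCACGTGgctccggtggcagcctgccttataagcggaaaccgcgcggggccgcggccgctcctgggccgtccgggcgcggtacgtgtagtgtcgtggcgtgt
Hmgcs1 holds 3 inverted CCAAT boxes and the sterol element, which lies 137 to 129 bases before the start. Mvd holds 1 CCAAT box on each strand, and Cyp51 holds 1. Insig1 has an inverted CCAAT box 216 to 212 bases and an E-box 101 to 96 bases before its start.

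Insig1 (ENSMUSG00000045294, chromosome 5, 28071363–28078662) was unevenly spread from cell to cell. In AFX6 its lowest, median and highest cells were at 0, 88.9 and 757 CPM. In 5ar2 they were at 0, 0 and 146, in 5ar1 at 0, 0 and 33, and in AF32 at 0, 0 and 0.992. The ranges of AFX6 and 5ar2 overlapped, and AF32 had no cell above 1 CPM. Above 5 CPM were 47 of 66 AFX6 cells (71.2%, exact Clopper-Pearson 95% interval 58.8 to 81.7), 32 of 90 cells of 5ar2 (35.6%, 25.7 to 46.3), 4 of 90 of 5ar1 (4.44%, 1.2 to 11.0) and 0 of 80 of AF32 (0 to 4.51). The intervals cover counting error only. Insig1 was thus not confined to AFX6, since 32 cells of the FS line 5ar2 held it too. From summed counts the line level was 131 CPM in AFX6, 7.06-fold above 5ar2 with 18.6, while 5ar1 had 1.3 and AF32 0.155. For scale, 3 Y-linked genes, almost absent in AFX6, stood there at 0.282% of their mean in the other lines. The same share of the mean Insig1 level of the lines other than AF32 would be 0.142 CPM. Whether the reads of AF32 were carried over was not tested.

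Scd1 (ENSMUSG00000037071, chromosome 19, 44394455–44407879), a stearoyl-CoA desaturase that makes monounsaturated fatty acids, had the same kind of distribution. Its lowest, median and highest cells were at 0, 149 and 1478 CPM in AFX6, at 0, 0 and 249 in 5ar2, at 0, 0.202 and 253 in 5ar1 and at 0, 0.279 and 1.3 in AF32. Above 5 CPM were 50 of 66 AFX6 cells (75.8%, 63.6 to 85.5), 14 of 90 of 5ar2 (15.6%, 8.77 to 24.7), 6 of 90 of 5ar1 (6.7%, 2.5 to 13.9) and 0 of 80 of AF32 (0 to 4.51). AFX6 alone had a median cell with a high level of Scd1, while in the FS lines it was the matter of a few cells. The line level was 199 CPM in AFX6, 16.9-fold above 5ar2 with 11.8. In 5ar1 it was 4.77 CPM, of which a single cell supplied 64.0%, and 1.7 without that cell. In AF32 it was 0.332 CPM, beside 0.202 for the same share of the other lines, and carry-over was not tested here either.

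Most AFX6 cells had both Insig1 and Scd1. Of 66 cells, 39 had both above 5 CPM, 8 had Insig1 alone, 11 had Scd1 alone and 8 had neither. Spearman's rho between the genes was 0.366 over these 66 cells, which share a culture and plates, so no p is given. In 5ar2, 10 of 90 cells had both, 22 had Insig1 alone, 4 had Scd1 alone and 54 had neither, with a rho of 0.2. In AFX6 the number of detected genes of a cell had a rho of 0.313 with Insig1 and 0.111 with Scd1. Its part in the result was not tested.

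**Figure D1:**
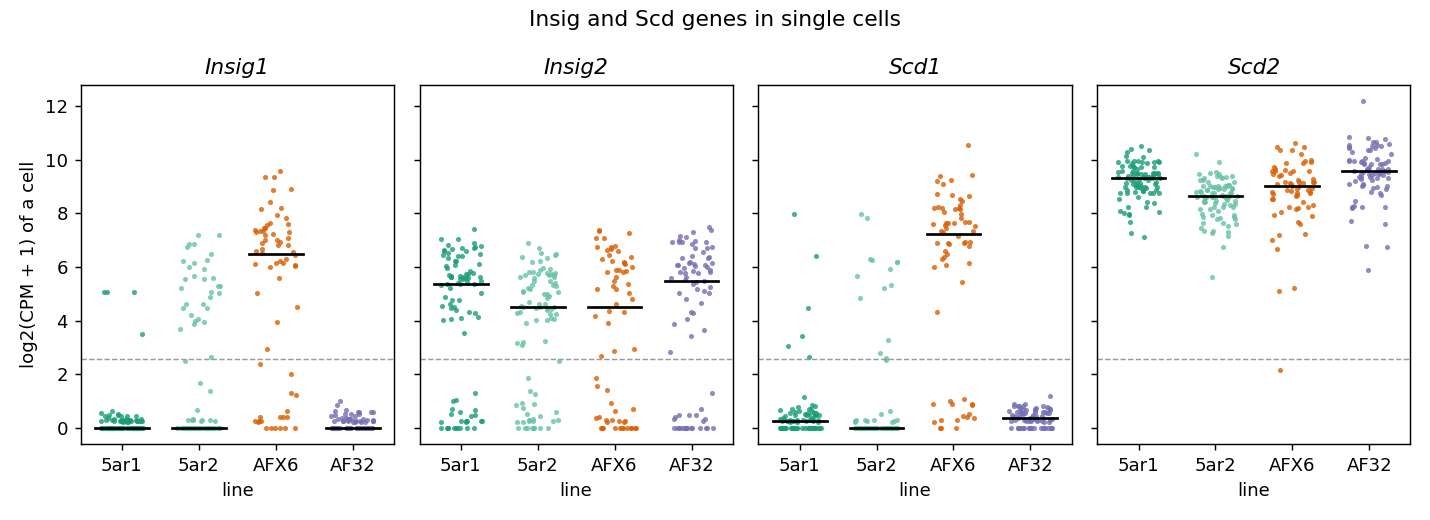
Level of Insig1, Insig2, Scd1 and Scd2 in each kept cell, as log2(CPM + 1), by line (90, 90, 66 and 80 cells). Points are cells, black bars the median of the line, and the dashed line marks 5 CPM. Insig1 and Scd1 split into cells without and cells with a level in AFX6 and 5ar2 and are below the dashed line in all 80 AF32 cells, while Insig2 and Scd2 are present in every line.

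The paralogs of both genes did not share this pattern. Insig2, whose product also retains Scap, was at 41.2 CPM in AFX6, 50.0 in AF32, 41.0 in 5ar1 and 28.1 in 5ar2. Scd2 was at 581 CPM in AFX6, 888 in AF32, 646 in 5ar1 and 412 in 5ar2. It was above 5 CPM in 65 of 66 AFX6 cells and in every kept cell of the other lines. Per kilobase of exon, Insig1 was the more abundant Insig gene in AFX6, with 42.4 CPM per kilobase against 11.9 for Insig2. In AF32 Insig2 was at 14.4 CPM per kilobase and Insig1 at 0.050. Scd2 was above Scd1 in every line on this scale, with 106 against 40.6 CPM per kilobase in AFX6. Scd1 lies near Scd2 on chromosome 19, and 2.6% of its 100-base stretches also occur in another gene, so that most of its stretches are unique. Over AFX6 cells Insig1 had a rho of 0.0791 with Insig2, and Scd1 a rho of 0.0613 with Scd2.

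Among the other regulators, both SREBP genes were higher in the EpiSC lines. Srebf1 was at 336 CPM in AF32, 156 in AFX6, 126 in 5ar1 and 90.8 in 5ar2, so that AF32 was 2.1-fold above the next line. Srebf2 had another order, with 278 CPM in AFX6, 200 in AF32, 183 in 5ar1 and 166 in 5ar2. Srebf1 and Srebf2 thus had their highest level in different EpiSC lines. Scap, the escort of both, was low, at 20.7 to 30.1 CPM, and its median cell was at 0.177 CPM in AFX6 against 24.6 in 5ar1. Of its exon bases 13.2% overlap another gene, whose reads a count without strand cannot separate.

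**Figure D2:**
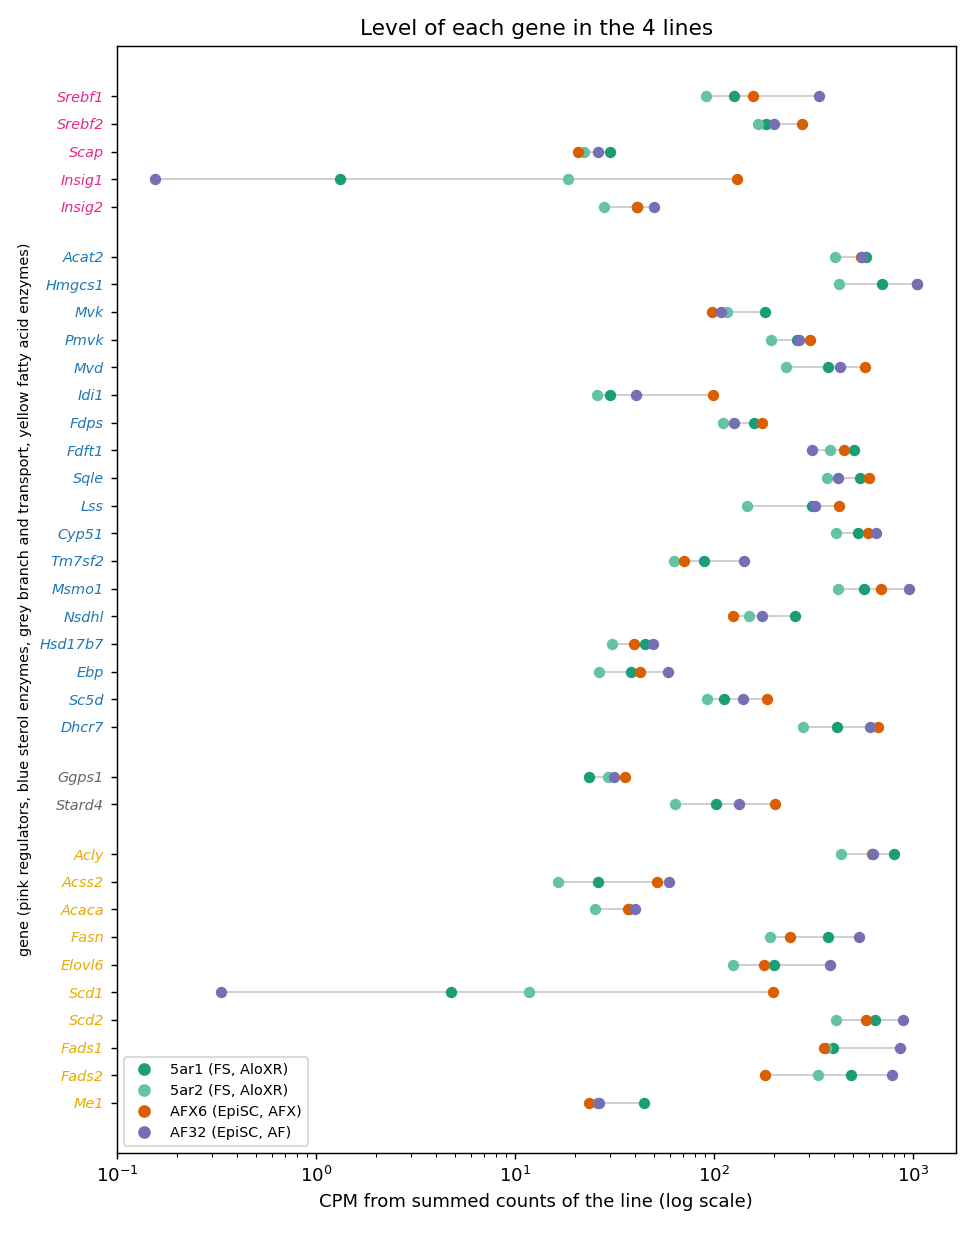
Level of the 35 genes in the 4 lines, as CPM from the summed counts of a line on a log axis, ordered by role. Each point is a line and the grey bar spans its 4 lines. All 33 genes other than Insig1 and Scd1 lie within a 4.36-fold range, from the lowest to the highest line, while Insig1 and Scd1 span 847-fold and 599-fold, which are lower bounds, since the 55 and 118 counts of AF32 may include carried-over reads.

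The enzymes of the mevalonate and sterol pathway were present in every line, from 25.7 CPM for Idi1 in 5ar2 to 1053 for Hmgcs1 in AFX6. The early steps were led by Hmgcs1, the HMG-CoA synthase, with 1053 CPM in AFX6, 1051 in AF32, 698 in 5ar1 and 423 in 5ar2. The levels of the 2 EpiSC lines could not be told apart on this gene, with a fold of 1.00 and a counting interval of 0.998 to 1.01. Acat2, which condenses acetyl-CoA at the head of the pathway, was at 408 to 581 CPM, although 28.9% of its 100-base stretches occur in other genes, mainly Acat3. The kinases that follow were Mvk, at 97.4 CPM in AFX6 to 180 in 5ar1, and Pmvk, at 193 in 5ar2 to 302 in AFX6. Mvk was the only member whose level was lower in both EpiSC lines than in both FS lines. Mvd, the mevalonate diphosphate decarboxylase, was at 573 CPM in AFX6, 431 in AF32, 373 in 5ar1 and 230 in 5ar2.

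Idi1, which isomerizes the 5-carbon units from which sterols are built, was the sterol enzyme with the clearest excess in AFX6. It was at 98.6 CPM there, 40.7 in AF32, 30.0 in 5ar1 and 25.7 in 5ar2, 2.4-fold above the next line. Its median cell was at 75.8 CPM in AFX6, above the upper quartile of every other line, of which the highest was 58.1 in AF32. Pseudogenes and an overlapping gene share 21.9% of the 100-base stretches of Idi1. Fdps, which joins the units to farnesyl diphosphate, differed little, with 111 CPM in 5ar2 to 174 in AFX6.

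Squalene synthesis and cyclization are the work of Fdft1, Sqle and Lss. Fdft1 was highest in 5ar1 with 507 CPM and lowest in AF32 with 311. Sqle, a rate-limiting oxygenase, ranged from 371 CPM in 5ar2 to 599 in AFX6. Lss, which closes the rings to lanosterol, was at 423 CPM in AFX6, 324 in AF32, 312 in 5ar1 and 147 in 5ar2, and it was the only sterol enzyme with more than a 2-fold difference between the FS lines. The enzymes that turn lanosterol into cholesterol kept to 2 ranges. Cyp51, Msmo1 and Dhcr7 were at 281 to 960 CPM over the 4 lines, with Msmo1 highest in AF32 and Dhcr7 highest in AFX6 with 667. Tm7sf2, Nsdhl, Hsd17b7, Ebp and Sc5d were at 26.3 to 256 CPM. Nsdhl was highest in 5ar1, and Tm7sf2 was at 141 CPM in AF32 against 63.3 to 88.7 in the other lines.

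Of the 2 genes beside the pathway, Stard4, which carries cholesterol between membranes, was at 203 CPM in AFX6, 134 in AF32, 103 in 5ar1 and 63.4 in 5ar2. Ggps1, which diverts farnesyl diphosphate to protein prenylation, was at 23.6 to 35.9 CPM and was the only member apart from Insig1 and Scd1 with a higher level in 5ar2 than in 5ar1.

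AF32 was the highest line for 7 of 10 fatty acid enzymes, against 32% of all genes. Chromosomes 11 and 19, which carry Fasn, Acly, Acaca, Scd1, Scd2, Fads1 and Fads2, had lower medians over all genes in AFX6 than in AF32. Fads2, the delta-6 desaturase of polyunsaturated fatty acids, was at 788 CPM in AF32, 486 in 5ar1, 334 in 5ar2 and 181 in AFX6. Fads1, the delta-5 desaturase that follows it, was at 864 CPM in AF32, 394 in 5ar1, 364 in 5ar2 and 358 in AFX6. AF32 stood apart from the other lines on Fads1, and AFX6 was the lowest line on both genes. Fasn, the fatty acid synthase, was at 536 CPM in AF32, 374 in 5ar1, 241 in AFX6 and 191 in 5ar2. Elovl6, which lengthens its product palmitate, was at 383 CPM in AF32, 199 in 5ar1, 179 in AFX6 and 124 in 5ar2. Acss2, which makes acetyl-CoA from acetate, was at 59.1 CPM in AF32 and 51.8 in AFX6 against 26.3 in 5ar1 and 16.4 in 5ar2. It was the only fatty acid enzyme with both EpiSC lines above both FS lines.

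Acly, which makes acetyl-CoA from citrate, was highest in 5ar1 with 803 CPM, at 630 in AF32, at 624 in AFX6 and at 435 in 5ar2. Acaca, the first committed enzyme, lay at 25.2 to 40.2 CPM and Me1, a source of NADPH, at 23.4 to 44.4. Both had a low level throughout, and Acaca shares 23.7% of its 100-base stretches with other genes.

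AFX6 and AF32 were set side by side as folds of summed counts, with no test, to ask which genes of the pathway differ between EpiSCs with and without XAV939. The median log2 fold of AFX6 over AF32 was −0.12 over the 35 members and −0.11 over 11260 genes that reached 5 CPM in AFX6 or AF32. At least 2-fold higher in AFX6 were 3 members, Insig1, Scd1 and Idi1, against 8.4% of all genes. At least 2-fold higher in AF32 were 6 members, Srebf1, Tm7sf2, Fasn, Elovl6, Fads1 and Fads2, against 13.3%. As 2 of the first 3 are the genes for which the group was picked, nothing is read from that count. The 6 of 35 are near the background. AFX6 was the higher line for 15 members, against 42.8% of all genes. By role, the median log2 fold was 0.07 for the 18 sterol enzymes and −0.40 for the 10 fatty acid enzymes, of which Scd1 alone was higher in AFX6. The largest fold on the side of AF32 was that of Fads2, with 4.36 (exact conditional 95% interval for counting error 4.33 to 4.40).

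On 3 chromosomes that carry several members, the median over all genes also lay below the overall median. On chromosome 11, with Srebf1, Fasn, Acly and Acaca, the median log2 fold of AFX6 over AF32 was −0.47 over 919 genes, and Srebf1 and Fasn stood at −0.63 and −0.68 relative to it. On chromosome 19, with Scd1, Scd2, Fads1, Fads2 and Tm7sf2, it was −0.18 over 388 genes, and Fads2 and Fads1 stood at −1.949 and −1.09 relative to it. On chromosome 8, with Mvd and Msmo1, it was −0.48 over 646 genes, and relative to it Msmo1 moved from −0.48 to −0.00054 and Mvd from 0.41 to 0.89. Relative to their chromosome, Srebf1, Fasn and Tm7sf2 were no longer past 2-fold. The median of the fatty acid enzymes was then −0.26, and Acly, Acaca and Acss2, with 0.46, 0.35 and 0.07, were higher in AFX6 along with Scd1. The part of the chromosomes in these levels was not tested.

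The FS lines, which share a medium, differed more evenly. Of the 35 members, 32 were higher in 5ar1 than in 5ar2, against 56.9% of 10744 genes, and the median log2 fold was 0.54 against 0.06. All 18 sterol enzymes were higher in 5ar1, with log2 folds from 0.22 for Idi1 to 1.08 for Lss. The fatty acid enzymes other than Scd1 were higher too, from 0.11 for Fads1 to 0.97 for Fasn. Most of these differences were small, since only Lss was at least 2-fold higher in 5ar1, against 3.71% of all genes. Insig1 and Scd1 were at least 2-fold higher in 5ar2, against 2.3% of all genes. Both chosen genes thus went against most other members within the FS state. For Scd1 the log2 fold was −1.3, and −2.57 without the cells with few detected genes. Chromosome 19 had a median log2 fold of −0.27 in this comparison, so that Scd2 stood at 0.92 and Fads2 at 0.81 relative to it. Together the members took 0.922% of the counts of 5ar1 and 0.624% of those of 5ar2, beside 1.1% in AF32 and 1.01% in AFX6. No test was made, as each side is 1 line.

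**Figure D3:**
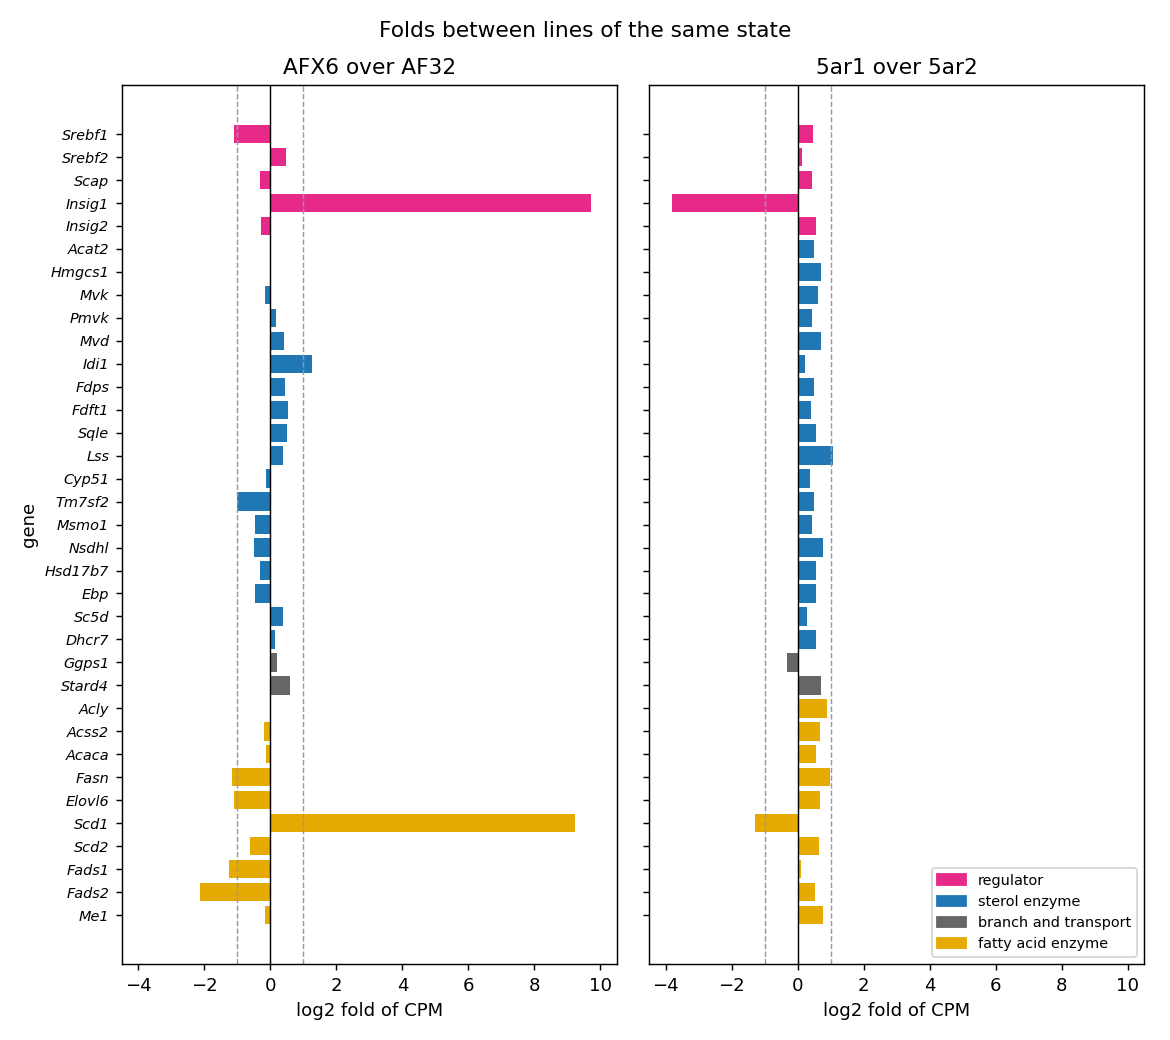
Log2 fold of CPM from summed counts for each of the 35 genes, AFX6 over AF32 on the left and 5ar1 over 5ar2 on the right, coloured by role. Dashed lines mark 2-fold. On the left 3 genes are past the line towards AFX6 and 6 towards AF32, and on the right 32 bars point towards 5ar1 with only Lss past the line.

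EpiSCs were then set against FS cells by edgeR's quasi-likelihood test over 22606 genes, where each line was 1 replicate (2 against 2). A gene was called where its Benjamini-Hochberg adjusted p was below 0.05 and its log2 fold beyond 1.4 in either direction. With edgeR, 0 members and 0 of all genes (0.0%) were called, while 3636 genes had an unadjusted p under 0.05. DESeq2 called 933 genes higher and 875 lower in EpiSCs, and limma called 0. At an unadjusted p under 0.05, edgeR gave 7 of 35 members, beside 3636 of 22606 genes in either direction. All 7 were higher in EpiSCs, against 7.02% of all genes in that direction. The test was of both directions, so nothing is read from this count. These 7 were Acss2, Dhcr7, Hmgcs1, Msmo1, Stard4, Sc5d and Srebf1. Acss2 had the lowest unadjusted p of the members in edgeR. Its log2 fold of EpiSCs over FS cells was 1.385 ± 0.31 (2 lines against 2), with an adjusted p of 0.19 in edgeR. The value after ± is an error derived from the test, the log2 fold over the square root of its F. DESeq2 called Acss2 alone among the members, with a log2 fold of 1.407 and an adjusted p of 0.0028. Hmgcs1 had a log2 fold of 0.92 ± 0.28 with an adjusted p of 0.24, and Dhcr7 one of 0.88 ± 0.25 with an adjusted p of 0.22, both in edgeR. Insig1 and Scd1, high in 1 of 2 EpiSC lines, had log2 folds of 2.746 ± 2.747 and 3.62 ± 2.515. The dispersion between lines of a state, estimated in common over all genes tested, was 0.653. It includes the difference of medium between the EpiSC lines, and single genes can differ from it.

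As a description, the median log2 fold of EpiSCs over FS cells was 0.47 over the 35 members, against 0.01 over all genes tested. The 35 include Insig1 and Scd1, for which the group was picked. With 5ar2 left out, the line with the lowest level of most members, the median was 0.26 against 0.06 over all genes. With 5ar1 left out, the median was 0.76 against 0.05 over all genes. Both EpiSC lines lay above both FS lines for 16 members, against 27.6% of 11728 genes with at least 5 CPM in a line. They lay below both FS lines for 1, Mvk, against 26.1%. The 16 were 10 sterol enzymes, Srebf1, Srebf2, Insig2, Ggps1, Stard4 and Acss2. AFX6 was the highest of the 4 lines for 14 members, against 26.0% of all genes, and at least 2-fold above the next line for 3, against 3.77%. These 3 were Idi1 and the 2 genes that the choice of the group rests on, so nothing is read from the count. AF32 was also the highest for 14, against 32%, and at least 2-fold above the next for 2, Srebf1 and Fads1, against 4.47%. The sterol enzymes were split between the EpiSC lines, with 9 highest in AFX6 and 5 in AF32.

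The other genes of the pathway, 24 in number, gave 0 calls in edgeR. At an unadjusted p under 0.05 it gave 3, Npc2, Lpin1 and Slc25a1, all higher in EpiSCs. These 3 of 24 are not above the share over all genes, 3636 of 22606 in either direction. Lpin1, a phosphatidate phosphatase and SREBP target, was at 138 CPM in AFX6, 70.0 in AF32, 32 in 5ar1 and 21.9 in 5ar2. Npc2, which exports cholesterol from lysosomes, was at 499 and 486 CPM in the EpiSC lines against 244 and 216 in the FS lines. Both were above the FS lines in AFX6 and in AF32 alike. Between AFX6 and AF32, 0 of these genes with at least 5 CPM were 2-fold higher in AFX6. Nr1h3, the sterol-sensing receptor LXRα, was at 6.9 CPM in AF32, 4.15 in 5ar1, 3.16 in 5ar2 and 0.0150 in AFX6, which is 5 counts in all 66 cells. Between the FS lines, Soat1, which esterifies cholesterol, was 2.4-fold higher in 5ar1. Abca1, Mylip, Scd3 and Scd4 stayed below 5 CPM in every line.

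The members also moved together from cell to cell within a line. For each pair of genes whose mean level reached 20 CPM, Spearman's rho of log2(CPM + 1) was taken over the kept cells of 1 line. All 18 sterol enzymes were at that level in every line. The median over their 153 pairs was 0.309 in AF32, 0.289 in 5ar2, 0.268 in AFX6 and 0.194 in 5ar1. Over all pairs of genes at that level it was 0.0109, 0.00524, 0.0261 and 0.00743 in the same order. A rho of at least 0.3 was reached by 51.6%, 49.7%, 43.8% and 23.5% of the pairs of sterol enzymes, and by 0.638% to 2.3% of all pairs. The pairs of fatty acid enzymes were less close, with medians of 0.145, 0.13, 0.0778 and 0.0515. The pairs of a sterol and a fatty acid enzyme lay between, with medians of 0.128 to 0.176. Cells of a line are not replicates, they differed in depth, and the labels name no cultures or plates. These are therefore descriptions and no p is given.

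The closest pairs, by the median of the 4 lines, joined a few genes. Acat2 and Mvd reached 0.661 in 5ar2, 0.626 in AF32, 0.593 in AFX6 and 0.493 in 5ar1. Acat2 and Hmgcs1 had 0.589, 0.625, 0.598 and 0.545 in the same order. Hmgcs1 and Cyp51 had 0.587, 0.639, 0.576 and 0.528. Hmgcs1 and Mvd had 0.612, 0.533, 0.677 and 0.448. Acat2, Hmgcs1, Mvd and Cyp51 all act in the mevalonate and sterol pathway. The closest pair with a fatty acid enzyme was Acat2 and Acly, both users or makers of acetyl-CoA, with 0.649, 0.552, 0.583 and 0.384. These 5 pairs had a rho above 0.3 in every line, with 5ar1 the lowest in each. The motif counts above place CCAAT before Hmgcs1, Cyp51 and Mvd, while for Acat2 none of the 3 motifs lies in the window. As CCAAT was found for 14 of 15 sterol enzymes, it is not particular to these pairs.

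**Figure D4:**
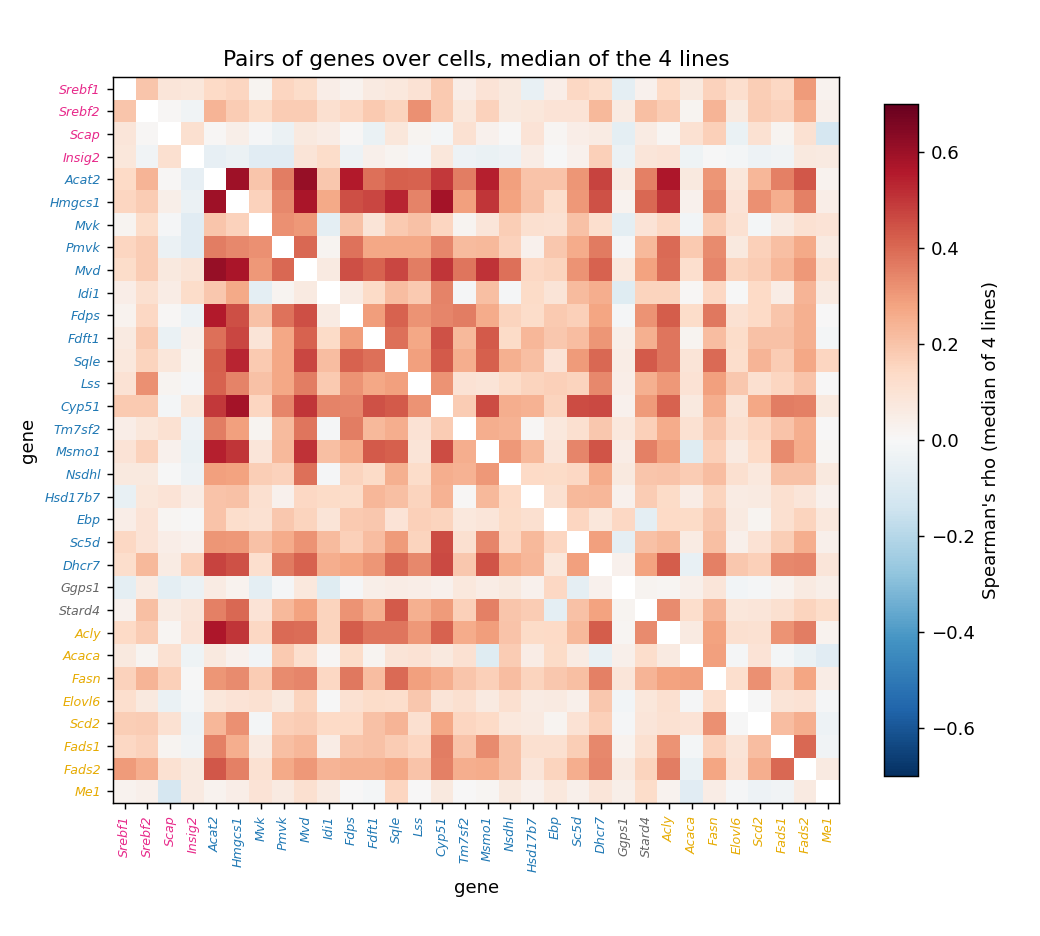
Spearman's rho for each pair of the 32 members with at least 20 CPM in every line, as the median of the 4 lines, ordered by role. Red squares are positive and blue negative. The block of sterol enzymes from Acat2 to Dhcr7, with Stard4, Acly, Fasn, Fads1 and Fads2, is mostly red, while Scap, Insig2, Ggps1 and Me1 are near 0.

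To rank single genes, each was set against a sterol score, the mean Z-score of the sterol enzymes other than the gene itself. A rho of at least 0.3 with the score was counted. In 5ar1 it was reached by 15 of 33 members at the level of 20 CPM, against 0.772% of all genes at that level. In 5ar2 it was 20 of 32 against 0.914%, in AF32 21 of 33 against 2.0% and in AFX6 24 of 35 against 9.63%. In AFX6 many genes outside the pathway followed the score too. There the score had a rho of 0.508 with the number of detected genes of a cell, against −0.0484 to 0.0983 in the other lines. With detected genes regressed out, 24 members and 11.0% of all genes in AFX6 were at the limit.

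Among 5759 genes with at least 20 CPM in every line, 25 reached the limit in at least 3 lines (0.434%). Of these 25 genes 19 were members, out of 32 members at that level. In all 4 lines it was 14 genes, of which 12 were members: Acat2, Hmgcs1, Mvd, Fdps, Fdft1, Sqle, Lss, Cyp51, Msmo1, Acly, Fads1 and Fads2. The median rho over the 4 lines was highest for Hmgcs1 and Mvd, with 0.671 each. It was 0.246 for Idi1 and 0.181 for Mvk, the sterol enzymes that followed the others least. Acly, with 0.587, followed the sterol enzymes more closely than 13 of the 18 sterol enzymes themselves did. Fasn had 0.424, Fads2 0.418 and Fads1 0.371. Elovl6, Acaca and Me1 did not reach the limit in any line, with medians of 0.194, 0.117 and 0.109.

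The regulators stayed below the limit of 0.3 in most lines. Srebf2 had a rho of 0.532 with the score in AFX6, and 0.158, 0.213 and 0.2 in 5ar1, 5ar2 and AF32. Srebf1 had 0.326 in AF32 and 0.0207 to 0.23 elsewhere. Each SREBP gene thus passed the limit in 1 line, which was the line of its highest level. Scap and Insig2 stayed below 0.3 in every line. Insig1 in AFX6, the only line where it reached 20 CPM, had a rho of 0.0592 with the score, and Scd1 had −0.0624. Neither gene thus moved with the sterol enzymes over the cells of AFX6.

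**Figure D5:**
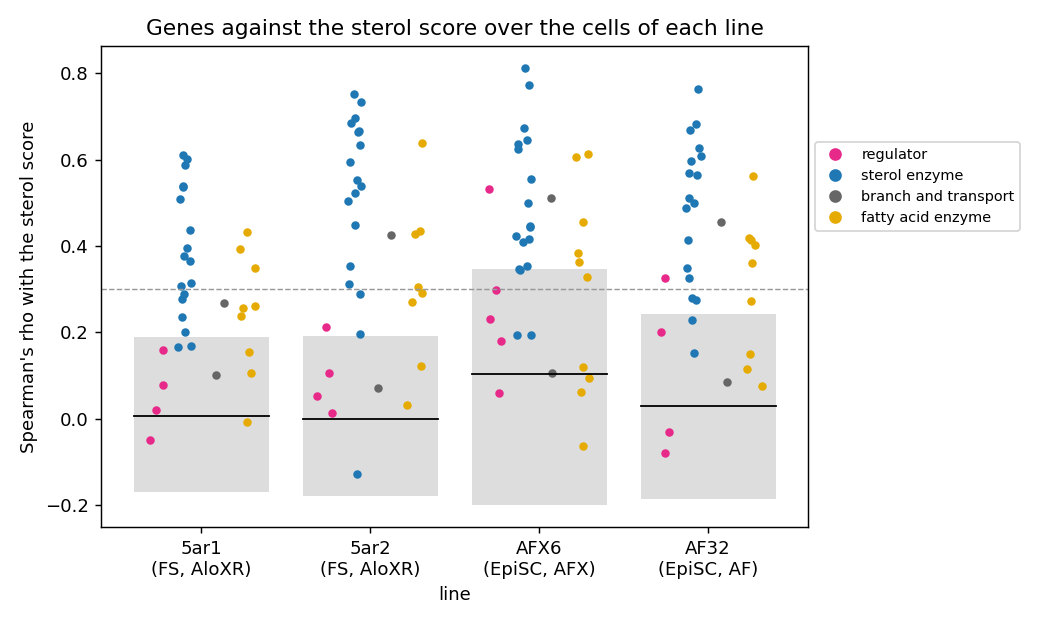
Spearman's rho of each member with the sterol score over the cells of a line (90, 90, 66 and 80 cells), coloured by role. Grey bands hold the middle 90% of all genes at that level, black lines their median, and the dashed line marks 0.3. Most sterol enzymes and part of the fatty acid enzymes lie above the band in each line, and the band of AFX6 lies higher than the others, up to 0.346.

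Among the genes outside the list with the highest median rho over the 4 lines were Aacs, Pcyt2, Tuba1a, Scarb1, Tecr, Rdh11, Idh1, Elovl5 and Slc9a3r1. Aacs, which makes acetoacetyl-CoA in the cytosol, was first with a rho of 0.517, 0.531, 0.56 and 0.409 in 5ar1, 5ar2, AFX6 and AF32. It reached 0.3 in all 4 lines. Scarb1, a receptor that takes up cholesterol from lipoproteins, had 0.344, 0.419, 0.205 and 0.565, and Pcyt2, an enzyme of phosphatidylethanolamine synthesis, had 0.418, 0.481, 0.294 and 0.488. Tecr, the last enzyme of fatty acid elongation, reached 0.325 to 0.39 in 3 lines and −0.0153 in AFX6.

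Per cell, the mean Z-scores of the sterol and of the fatty acid enzymes moved in parallel in each line. Their rho was 0.658 in AFX6, 0.619 in 5ar2, 0.569 in AF32 and 0.529 in 5ar1. The fatty acid score had a rho of 0.214 to 0.42 with detected genes, whose part was not tested.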

How the data were processed

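Single cells of 4 lines were profiled by Smart-seq2. The authors aligned reads with STAR 2.7.3a to GRCm38.p6 with Ensembl annotation, and the deposited counts are unique reads per gene from featureCounts 2.0.0. The deposited normalized values are a depth-corrected score that the authors made with sctransform; which of its outputs is not stated in the sources used here, and they served only as an alternative. Without molecular identifiers, reads are not independent molecules.

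Cells under 3000000 counts were left out (58 of 384), after the authors' limit. Counts were summed per line. Lines were compared by edgeR 4.0.16 (quasi-likelihood), with DESeq2 1.42.0 and limma 3.58.1 as alternatives, after a test on simulated data in which 200 of 200 genes changed 8-fold were recovered at a dispersion of 0.05 and 1 of 200 at 0.653. Pairs of single lines got folds with counting intervals only. Correlations were Spearman's over cells of a line. Named were all members by role, other pathway genes past a limit, and the 10 non-members closest to the sterol score. Some genes that this rule names are not reported here. The members and lists were chosen with earlier results of these data known. The labels name no separate cultures of a line, and p-values measure only the spread between these lines.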

Additional observations from a re-analysis of the deposited data

Results flagged for a closer look

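The cells left out for low depth also held both genes. Among 30 AFX6 cells under 3000000 counts, Insig1 was above 5 CPM in 12 (40.0%, exact 95% interval 22.7 to 59.4) and Scd1 in 13 (43.3%, 25.5 to 62.6). In AF32, 0 of 16 such cells were above 5 CPM for either gene, which allows a share of up to 20.6%. In 5ar2, 2 of 6 such cells were above 5 CPM for each gene, and in 5ar1 1 of 6, so the signal was not particular to AFX6. The low-depth cells stood out because they enter no comparison above and yet carried a signal not seen in AF32.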

How the results depend on the processing

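Of 66 values that answer a comparison, 63 counted as unchanged under the alternatives. A median log2 fold or rho counted so if it moved less than a spread between lines, even across 0. For folds this spread came from the FS lines. A count of called members had to stay equal, which says little, since edgeR and limma called 0 genes in every setting. Other counts had to stay within a set ratio. DESeq2 called 1 member between FS cells and EpiSCs where edgeR called 0, and leaving out each line in turn gave 0 to 0 calls. With genes of at least 50 CPM, the mean over lines of the median rho was 0.3208 for sterol enzymes (0.265 with 20 CPM) and 0.1839 for fatty acid enzymes (0.101). The cause was not tested. The log2 fold of Scd1 in 5ar1 over 5ar2 turned from −1.3 to 0.2654 with the median CPM per cell plus 1, since the median cell of both lines is near 0. The median log2 fold of the members stayed between −0.1671 and −0.02772 for AFX6 over AF32 and between 0.5127 and 0.5863 for 5ar1 over 5ar2. Over all 791 values, 750 were unchanged by these criteria, 39 moved, 1 passed a threshold and 1 reversed. No paired analysis was possible because the replicate numbers only name cells within a line. The dispersion of 0.653 was estimated in common over all genes tested, and the simulation gave it to every gene. It therefore does not tell how many differences of the members could have been called.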
